A study of Mus musculus with 20 samples.

Results

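The genes described here are 10 inhibitors of the mitogen-activated protein (MAP) kinase pathway: the dual-specificity phosphatases Dusp1, Dusp4, Dusp5, Dusp6 and Dusp14, the Sprouty genes Spry1, Spry2 and Spry4, the Sprouty-related gene Spred1, and Errfi1. They were found by symbol in the deposited table of counts, and make up 10 of its 37051 loci and 10 of the 17206 that passed the filter on low counts. RNA of the whole striatum was sequenced from 20 male mice, about 6 months old and labelled as Collaborative Cross, with 5 mice in each of 4 groups. Mice of a line selected for overactivity in the cage, and of a control line, were given saline or d-amphetamine at 25 mg/kg, and the tissue was collected 2 hours later. The groups are called control saline, control amphetamine, overactive saline and overactive amphetamine, and a library is the RNA of 1 mouse, numbered as in its label. There is 1 line of each kind, so selection for activity and any other difference between the lines cannot be told apart. D-amphetamine releases dopamine and other monoamines from nerve terminals, and the striatum is densely supplied with dopamine fibres.

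In neurons, dopamine and glutamate receptors and growth factor receptors activate Ras and then the kinases Raf, MEK and ERK, and ERK switches on transcription of rapid-response genes such as Fos and Egr1. The inhibitors described here form negative feedback on that chain: the phosphatases remove phosphate from ERK, p38 or JNK, the Sprouty and Spred proteins act upstream on Ras and Raf, and Errfi1 blocks the kinase of the epidermal growth factor receptor. Several of them are themselves transcribed when ERK or cyclic AMP signalling is active, so their mRNA is often used as a readout of recent pathway activity.

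Promoters were read from RefSeq on GRCm38.p6, from 250 bases before to 50 bases after each start site, and 8 of the 10 genes matched an entry (Dusp4 and Spry4 did not). The stretches printed are those that hold a cyclic AMP response element or a CArG box, the recognition sequence of serum response factor. All bases lie upstream of the RefSeq start site, written 5′ to 3′ along the gene. The GENCODE spans of Dusp1, Errfi1 and Dusp5 given below begin farther upstream, so they hold some or all of the printed bases. For Dusp1 (chr17:26508473-26508672, minus strand) capitals mark the full element TGACGTCA, whose first base is 143 bases upstream, and a shorter form of it, TGACG. For Errfi1 (chr4:150854910-150855069, plus strand) capitals mark the full element, 51 bases upstream. For Dusp5 (chr19:53528985-53529144, plus strand) capitals mark a pair of adjoining CArG boxes that begin 82 and 72 bases upstream.
Dusp1: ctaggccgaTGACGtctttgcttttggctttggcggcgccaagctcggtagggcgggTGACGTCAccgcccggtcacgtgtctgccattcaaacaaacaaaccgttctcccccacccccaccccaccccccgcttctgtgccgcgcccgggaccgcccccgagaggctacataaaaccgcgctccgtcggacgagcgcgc
Errfi1: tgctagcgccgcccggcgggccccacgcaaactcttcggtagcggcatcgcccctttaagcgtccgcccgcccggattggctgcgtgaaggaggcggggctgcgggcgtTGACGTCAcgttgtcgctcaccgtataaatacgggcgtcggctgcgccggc
Dusp5: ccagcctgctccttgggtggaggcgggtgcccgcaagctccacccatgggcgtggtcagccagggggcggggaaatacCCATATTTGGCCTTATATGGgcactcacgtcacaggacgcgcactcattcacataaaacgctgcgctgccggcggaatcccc

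Both strands of all 32851 promoters of that length were searched. The full element was in Dusp1 and Errfi1 and in 1.79% of all promoters. The shorter form TGACG, which the full element contains, was in Dusp1, Dusp5 and Errfi1 and in 20.8% of all promoters. The CArG box was in Dusp5 and in 1.63% of all promoters. The AP-1 site TGANTCA was in 0 of the 8 genes and in 7.81% of all promoters, the E-box CACGTG was in Dusp1 and in 7.15%, and the GC box GGGCGG was in 6 of the 8 and in 35.7%. These are matches of letters in a short window. The relation of these letters to the expression values was not tested.

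All 10 mRNAs were present in all 20 libraries, at levels that differed widely between genes. Levels are given as CPM, the counts of a locus relative to the total of its library, scaled between libraries. To compare genes, CPM was divided by the summed exon length in kilobases. Spred1, which holds Ras inactive together with neurofibromin, had the highest level per length, at 45.9 ± 4.43 CPM per kilobase (SD, n = 20). Spry2 followed with 30.6 ± 3.75 CPM per kilobase, and its range did not overlap that of Spred1. Dusp14, a small phosphatase of the atypical class, had 22 ± 6.55 CPM per kilobase and lay below Spry2 in 19 of 20 libraries. Dusp6, the cytoplasmic phosphatase specific for ERK, had 14.2 ± 3.81 CPM per kilobase and lay below Dusp14 in 20 of 20.

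The remaining genes were lower and several could not be ordered. Errfi1, at 8.26 ± 0.663 CPM per kilobase, exceeded Dusp4, at 8.13 ± 2.12, in only 12 of 20 libraries. Dusp1, the immediate early nuclear phosphatase of p38, JNK and ERK, had 5.85 ± 1.58 CPM per kilobase. It lay below Dusp4, a related inducible nuclear phosphatase, in 18 of 20. The annotated Dusp1 and Errfi1 genes reach well beyond their counted loci, so their lengths take in outside bases and their levels per length may be too low. Spry4, Dusp5 and Spry1 had 3.06 ± 0.537, 3.06 ± 0.711 and 2.95 ± 0.236 CPM per kilobase. Spry4 exceeded Dusp5 in 12 of 20 libraries and Dusp5 exceeded Spry1 in 11 of 20, so neighbours at this end of the order did not differ beyond their spread.

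Spread between mice of the same group differed from gene to gene, which is given as a description with no test. The pooled coefficient of variation within groups, on the CPM scale, was 31.3% for Dusp14, 27.4% for Dusp6, 27.2% for Dusp4, 26.8% for Dusp1 and 24% for Dusp5. It was 18.7% for Spry4, 12.4% for Spry2, 10.4% for Spred1, 8.44% for Spry1 and 6.53% for Errfi1. Read against genes with a mean CPM within a factor of 2 of its own, Dusp14 varied more within groups than 98.0% of them, Dusp6 more than 97.6%, Dusp4 more than 95.1% and Dusp1 more than 93.0%. The shares were 82.8% for Spry2, 79.1% for Dusp5, 78.5% for Spry4 and 74.7% for Spred1, so on this measure Dusp5 lay between Spry2 and Spry4. They were lowest for Errfi1 (27.5%) and Spry1 (14%). Across all 20 libraries the highest CPM was 3.28 times the lowest for Dusp14 and 1.30 times for Errfi1.

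**Figure D1:**
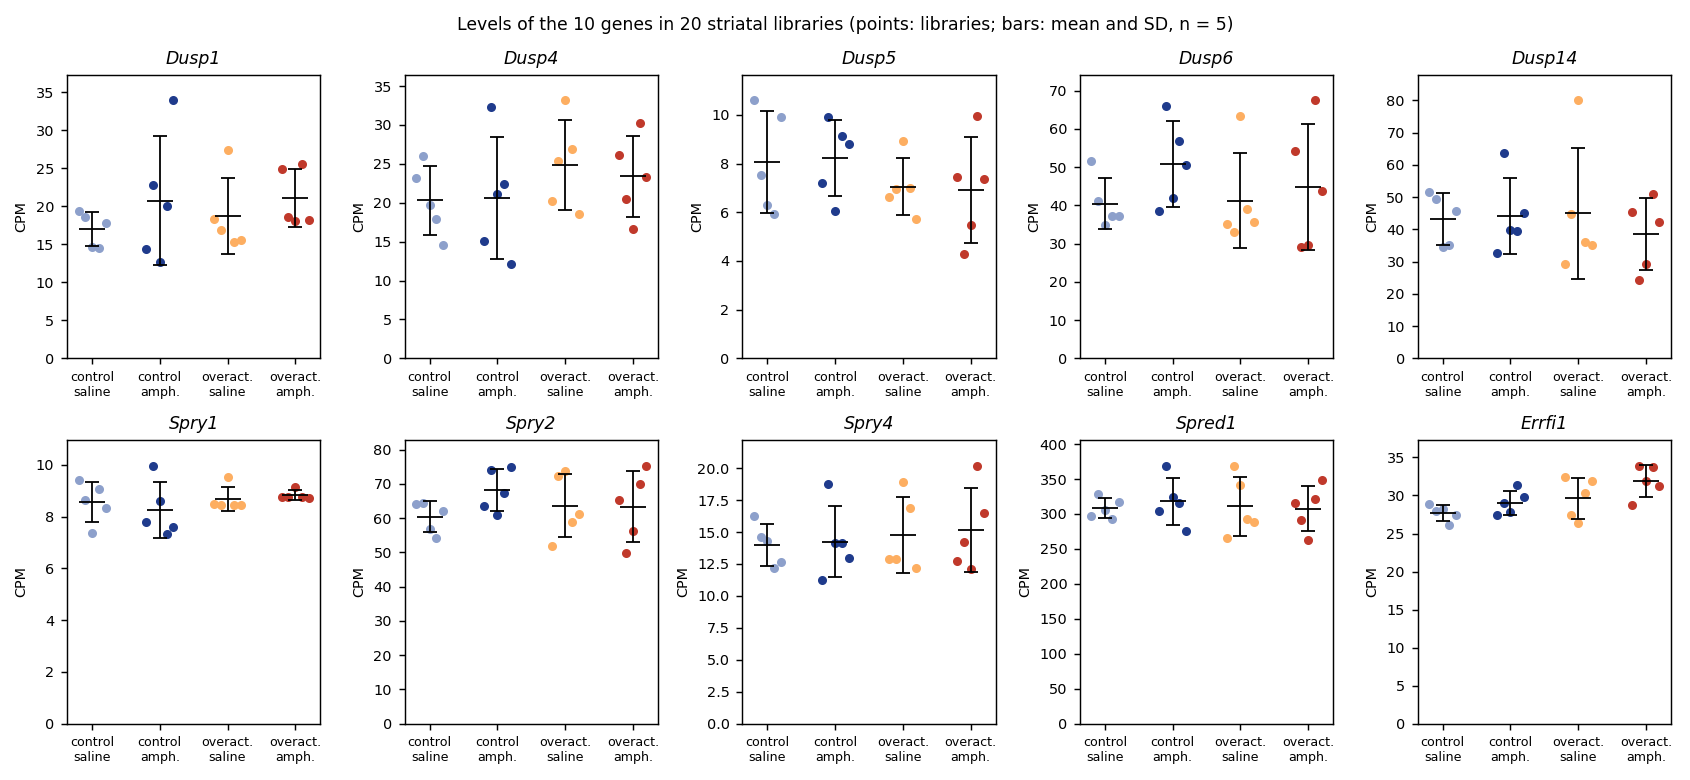
CPM of each of the 10 genes (vertical axes, each starting at 0) in the 5 libraries of each group (points), with the group mean and SD. The groups overlap for every gene, and overactive saline library 3 is the highest of its group for 8 of the 10.

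A few libraries were high or low for many of the genes at once. Overactive saline library 3 was the highest of its 5 libraries for 8 genes (Dusp1, Dusp4, Dusp5, Dusp6, Dusp14, Spry1, Spry2 and Spry4) and the lowest for Errfi1, with a median deviation from the group mean over the 10 genes of 0.37 on the log2 scale. Control saline library 1 and control amphetamine library 2 were each highest for 7 genes, and overactive amphetamine library 4 for 6, with median deviations of 0.21, 0.29 and 0.35. At the low end, control saline library 4 was the lowest of its group for 6 genes, with a median deviation of -0.15. Overactive amphetamine libraries 2 and 3, control amphetamine library 1 and overactive saline library 5 were each lowest for 4, with median deviations of -0.16, -0.25, -0.24 and -0.20. Overactive amphetamine library 2 had the lowest Dusp5, Dusp6, Dusp14 and Spry2 levels of all 20 libraries and the highest Errfi1 level. Values without it and overactive saline library 3 are given beside the results they alter, and that choice was made after seeing the data. Total counts of the 20 libraries were 31393788 to 53773028. In bulk tissue, fewer cells of a type and less RNA per cell cannot be told apart.

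The first comparison asked whether amphetamine altered these inhibitors 2 hours after the injection. No change passed the test: 0 of the 10 genes had a Benjamini-Hochberg adjusted p under 0.05 in edgeR's quasi-likelihood test, in the control line, in the overactive line or over both lines. Among all 17206 genes 0% were called in each of these 3 comparisons, although DESeq2 called 40 genes in the overactive line and 181 over both. At an unadjusted p under 0.05 the count was again 0 of 10 in each, where all genes gave 5.56% in the control line, 8.03% in the overactive line and 11% over both lines. DESeq2 and limma-voom also called 0 of the 10 genes. For no gene did the amphetamine and saline libraries separate without overlap, which they did for 1% of all genes in the control line, 0.761% in the overactive line and 0.00581% over both lines.

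Dusp1 (chromosome 17, 26505590 to 26562128, minus strand; positions are those of the gene in GENCODE M21, on GRCm38) was 19.4, 18.6, 14.7, 14.6 and 17.8 CPM in control saline libraries 1 to 5, and 14.4, 22.8, 12.6, 20 and 33.9 CPM in control amphetamine libraries 1 to 5. In the overactive line Dusp1 was 18.3, 16.9, 27.4, 15.3 and 15.6 CPM after saline and 24.9, 18.6, 18, 25.6 and 18.2 CPM after amphetamine. Amphetamine libraries reached higher in the control line, where library 5 stood alone, while in the overactive line saline library 3 was the highest of all 10. The log2 fold change over both lines was 0.23 (SE 0.16, 95% interval -0.09 to 0.55, edgeR adjusted p = 0.613), with 8 of 10 amphetamine libraries above the saline median. In the control line it was 0.29 (SE 0.22), and 0.04 without control amphetamine library 5. The counted Dusp1 locus ends at 26513335, short of the GENCODE span. A locus named LOC100862171 has the same span as the counted locus and held 10.6% to 18.8% of the counts of both. The sources used here do not say whether counting used strand.

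Dusp6 (chromosome 10, 99263231 to 99267489, plus strand) had the largest fold change of the 10 in the control line. It was 51.5, 41.1, 34.9, 37.3 and 37.3 CPM in control saline libraries 1 to 5, and 38.5, 66.1, 42.0, 56.8 and 50.4 CPM in control amphetamine libraries 1 to 5. All 5 amphetamine libraries lay above the saline median, but the groups overlapped through saline libraries 1 and 2 (log2 0.33, SE 0.22, 95% interval -0.14 to 0.80, edgeR adjusted p = 0.895). In the overactive line Dusp6 was 35.1, 33.1, 63.3, 39.1 and 35.7 CPM after saline, and 54.3, 29.2, 29.7, 67.4 and 43.7 CPM after amphetamine. Here both groups were wide, with 1 high saline library and 2 low amphetamine libraries (log2 0.12, SE 0.22, edgeR adjusted p = 0.952). Without overactive saline library 3 and overactive amphetamine library 2, the change in the overactive line was 0.45 and over both lines 0.39 (edgeR adjusted p = 0.522 and 0.245), against 0.23 with all libraries.

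Dusp14 (chromosome 11, 84048041 to 84069261, minus strand) showed how far 1 library carried a difference. It was 51.4, 49.3, 34.4, 35.2 and 45.7 CPM in control saline libraries 1 to 5 and 32.8, 63.5, 39.8, 39.5 and 45.2 CPM in control amphetamine libraries 1 to 5. In the overactive line it was 29.1, 44.7, 80.0, 36.1 and 35.0 CPM after saline and 45.3, 24.4, 29.3, 50.8 and 42.4 CPM after amphetamine. Overactive saline library 3 had the highest Dusp14 level of all 20 and overactive amphetamine library 2 the lowest. The log2 fold change in the overactive line was -0.23 (SE 0.25, edgeR adjusted p = 0.905), 0.09 without overactive saline library 3 and 0.21 without both libraries. In the control line the change was 0.03 (SE 0.25).

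The other nuclear phosphatases gave no fold change that could be told from 0. Dusp4 (chromosome 8, 34807297 to 34819894, plus strand) was 23.2, 26.0, 19.8, 17.9 and 14.6 CPM in control saline libraries 1 to 5 and 15.1, 32.3, 21.1, 22.4 and 12.1 CPM in control amphetamine libraries 1 to 5. The Dusp4 amphetamine libraries held both the highest and the lowest of these 10 values, and the log2 fold change over both lines was -0.03 (SE 0.16, edgeR adjusted p = 0.962). Dusp5 (chromosome 19, 53529109 to 53542431, plus strand), the nuclear phosphatase specific for ERK, was 10.6, 7.54, 6.32, 5.92 and 9.91 CPM in control saline libraries 1 to 5 and 7.22, 9.91, 6.03, 9.15 and 8.78 CPM in control amphetamine libraries 1 to 5. The groups spanned nearly the same range, and the change over both lines was 0.00 (SE 0.15, 95% interval -0.31 to 0.31).

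Among the Sprouty genes, Spry2 (chromosome 14, 105891947 to 105896819, minus strand) had the largest fold change in the control line. It was 64.3, 64.5, 56.9, 54.3 and 62.0 CPM in control saline libraries 1 to 5, and 63.7, 74.1, 61.0, 67.2 and 74.9 CPM in control amphetamine libraries 1 to 5. Of the amphetamine libraries 4 of 5 lay above the saline median, with overlap (log2 0.18, SE 0.11, edgeR adjusted p = 0.893). In the overactive line Spry2 was 51.8, 72.4, 73.9, 59.0 and 61.3 CPM after saline and 65.2, 49.8, 56.3, 70.0 and 75.3 CPM after amphetamine, and the change was -0.01 (SE 0.11). A second row of the table also carries the symbol Spry2 and the same span, and held 8.44% to 13.2% of the counts of both rows. Adding the rows changed no call.

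Spry1 (chromosome 3, 37639947 to 37644598, plus strand) was the steadiest of the low genes. Its group means ± SD (n = 5) were 8.56 ± 0.784 CPM in control saline, 8.26 ± 1.07 in control amphetamine, 8.68 ± 0.469 in overactive saline and 8.83 ± 0.186 in overactive amphetamine. Its fold change over both lines was -0.01 on the log2 scale (SE 0.06). Spry4 (chromosome 18, 38586247 to 38601415, minus strand) had means of 14 ± 1.63, 14.3 ± 2.78, 14.8 ± 2.97 and 15.2 ± 3.29 CPM in the same order, and a log2 fold change of 0.03 (SE 0.11). Spred1 (chromosome 2, 117121374 to 117182279, plus strand) had means of 308 ± 14.3, 318 ± 33.9, 311 ± 42.2 and 308 ± 32.7 CPM in that order, and a log2 fold change of 0.01 (SE 0.06). The edgeR adjusted p-values of these 3 genes over both lines were 0.945 to 0.957.

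Errfi1 (chromosome 4, 150853919 to 150868892, plus strand) was the most tightly measured of the 10. It was 28.9, 27.9, 28.2, 26.1 and 27.4 CPM in control saline libraries 1 to 5, and 27.4, 29.0, 27.8, 31.3 and 29.7 CPM in control amphetamine libraries 1 to 5. In the overactive line Errfi1 was 32.4, 27.4, 26.4, 30.3 and 31.9 CPM after saline and 28.7, 33.9, 31.9, 33.7 and 31.2 CPM after amphetamine. The order of the group means was control saline (27.7 ± 1.06 CPM), control amphetamine (29.1 ± 1.58), overactive saline (29.7 ± 2.69) and overactive amphetamine (31.9 ± 2.11), and neighbouring groups overlapped. The log2 fold change for amphetamine over both lines was 0.09 (SE 0.04, 95% interval -0.01 to 0.18, edgeR adjusted p = 0.48), with 8 of 10 amphetamine libraries above the saline median.

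The intervals set limits on what could have been missed. Over both lines, the 95% interval of the amphetamine effect lay within a 1.5-fold change in either direction for all 10 genes. Under the alternatives it held for 8 to 10: Dusp5 and Dusp14 reached beyond it with the cortical marker covariate (lower limits -0.68 and -0.81), Dusp6 and Dusp1 without overactive saline library 3 and overactive amphetamine library 2 (upper limits 0.68 and 0.66), and one or both of Dusp6 and Dusp1 when 1 of several libraries was left out. In the control line alone this held for 8 genes (not Dusp1 or Dusp6), and in the overactive line for 7 (not Dusp1, Dusp6 or Dusp14), and all 10 intervals lay within 2-fold in each line. The median log2 fold change of the 10 was 0.04 in the control line, with 9 positive, 0.01 in the overactive line, with 5 positive, and 0.02 over both lines, with 7 positive. Among all genes the share with a positive fold change was 48.8%, 48.3% and 47.5%, and all 3 medians were between -0.01 and 0.00. The direction of these values was not stable, because leaving out single libraries or changing the model turned the sign for 8 of the 10 genes in at least 1 amphetamine comparison, all but Dusp1 and Errfi1.

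**Figure D2:**
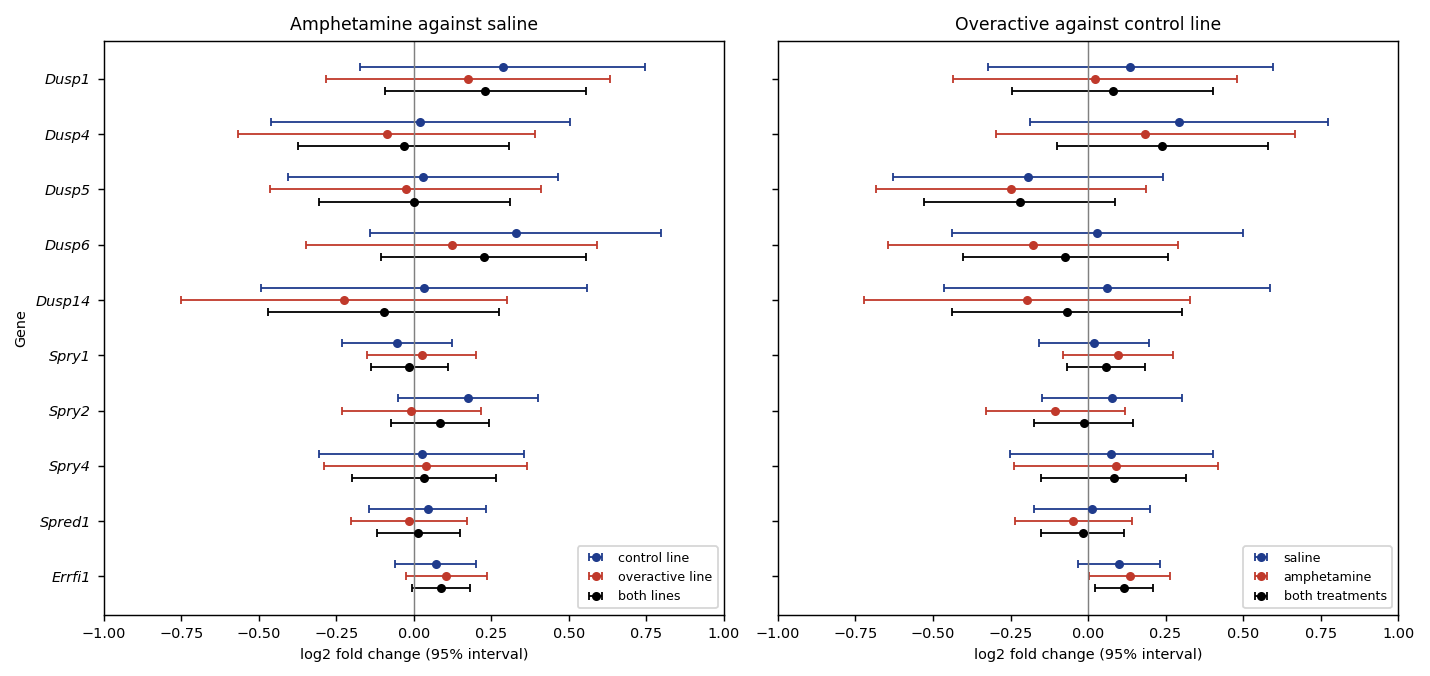
Log2 fold changes with 95% intervals (horizontal axis) of the 10 genes (vertical axis) in the comparisons of treatment and of line. The intervals cross 0 except those of Errfi1 in the overactive against control comparison under amphetamine and over both treatments.

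The second question was whether the response to amphetamine differed between the lines, and no such difference was detected. In edgeR's test of the interaction 0 of 10 genes passed, 0 of 10 had an unadjusted p under 0.05, and all adjusted p-values were 0.9999, where 0% of all genes were called and 2.96% had an unadjusted p under 0.05. DESeq2 and limma-voom called 0 of the 10 as well. The difference, overactive minus control, was positive for 3 of 10 genes and for 51.4% of all genes, with a median over the 10 of -0.08 on the log2 scale. The largest was that of Dusp14 (-0.26, SE 0.36, 95% interval -1 to 0.49), which became 0.18 without overactive saline library 3 and overactive amphetamine library 2. That of Dusp6 was -0.21 (SE 0.32) and 0.12 without these libraries. Intervals lay within 1.5-fold for only 5 of the 10 genes (Spry1, Spry2, Spry4, Spred1 and Errfi1), so for the phosphatase genes these data set no limit as tight as that.

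The third question was how the lines differed. Again 0 of 10 genes passed edgeR's test, where the call rate over all genes was 1.11% after saline, 0.453% after amphetamine and 7.02% with treatments joined. Unadjusted, 0, 1 and 1 of the 10 had a p under 0.05, beside 17.3%, 12.9% and 25.6% of all genes. DESeq2 and limma-voom called 0 of 10 in each. The libraries of the lines overlapped for all 10 genes, while 4.26%, 2.92% and 0.267% of all genes did not overlap. The difference was positive for 9, 5 and 5 of the 10, and for 49.9%, 51% and 50.2% of all genes. Over both treatments the 95% intervals of all 10 genes lay within 1.5-fold, and those of 9 or 10 under the alternatives, where Dusp4 and, with 1 library left out, Dusp5 reached beyond it.

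Errfi1, the receptor inhibitor, was the gene behind both unadjusted counts. Its log2 difference between overactive and control mice was 0.10 in saline (SE 0.06), 0.13 under amphetamine (SE 0.06, edgeR adjusted p = 0.379) and 0.12 over both treatments (SE 0.04, 95% interval 0.02 to 0.21, edgeR adjusted p = 0.108), which is 1.08-fold. Of the overactive libraries 8 of 10 lay above the control median. The difference was positive under all 30 alternatives, and the lowest adjusted p among them was 0.0611, so it did not pass in any.

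Dusp4 and Dusp5 had the largest differences between the lines, in opposite directions. Overactive mice had 20.3, 25.3, 33.2, 27.0 and 18.5 CPM of Dusp4 after saline and 26.1, 20.4, 16.7, 30.3 and 23.3 CPM after amphetamine, against the control values given above. The log2 difference over both treatments was 0.24 (SE 0.16, 95% interval -0.10 to 0.58, edgeR adjusted p = 0.373), with only 6 of 10 overactive libraries above the control median. Overactive mice had 6.61, 6.97, 8.91, 6.99 and 5.73 CPM of Dusp5 after saline and 7.45, 4.28, 5.47, 9.96 and 7.35 CPM after amphetamine. The log2 difference was -0.22 (SE 0.15, 95% interval -0.53 to 0.09, edgeR adjusted p = 0.362), with 2 of 10 overactive libraries above the control median. For the other 7 genes it lay between -0.07 and 0.08, and for each of them within 1 SE of 0.

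While no difference between the groups was detected, 7 of the 10 mRNAs varied from mouse to mouse with a list of genes described as ERK-responsive. To show this apart from the groups, each library's log2 CPM was taken as a deviation from its group mean. It was related to the mean deviation of 24 ERK-responsive transcription factor and activity genes, none of which is among the 10. The list holds Fos, Egr1, Nr4a2, Arc, Elk1, Elk4 and others, and the response of its genes to ERK was not tested here. Relations with that list and with 10 markers of cortical excitatory neurons made 20 in all, and p-values come from 100000 permutations within groups and are adjusted over the 20. How many other genes follow the list was not counted, so the count of 7 is not shown to be particular to the inhibitors. Among the 10, Dusp14 followed the list most closely (Pearson r = 0.94, Spearman rho = 0.94, n = 20), followed by Dusp6 (r = 0.90, rho = 0.91). The permutation p of both r values was 1e-05, the smallest these permutations can give (adjusted 0.0001), and that of rho was at most 2e-05 (adjusted 0.0002).

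Spry2 (r = 0.81, rho = 0.82), Dusp5 (r = 0.78, rho = 0.80), Dusp1 (r = 0.77, rho = 0.80), Spry4 (r = 0.67, rho = 0.62) and Dusp4 (r = 0.60, rho = 0.65) also passed. Their permutation p-values were 8e-05 to 0.0136 for r (adjusted 0.000533 to 0.0348) and 0.00017 to 0.0115 for rho (adjusted 0.001 to 0.0300). Spred1 did not pass by r (0.54, permutation p = 0.0396, adjusted 0.0880) but did by rho (0.61, permutation p = 0.0120, adjusted 0.0300). Spry1 (r = 0.42, rho = 0.37, permutation p = 0.0749 and 0.110, adjusted 0.150 and 0.200) and Errfi1 (r = -0.23, rho = -0.17, permutation p = 0.429 and 0.521, adjusted 0.537 and 0.651) did not pass by either. The correlation was positive within each of the 4 groups for 8 genes, all but Spry1 and Errfi1.

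**Figure D3:**
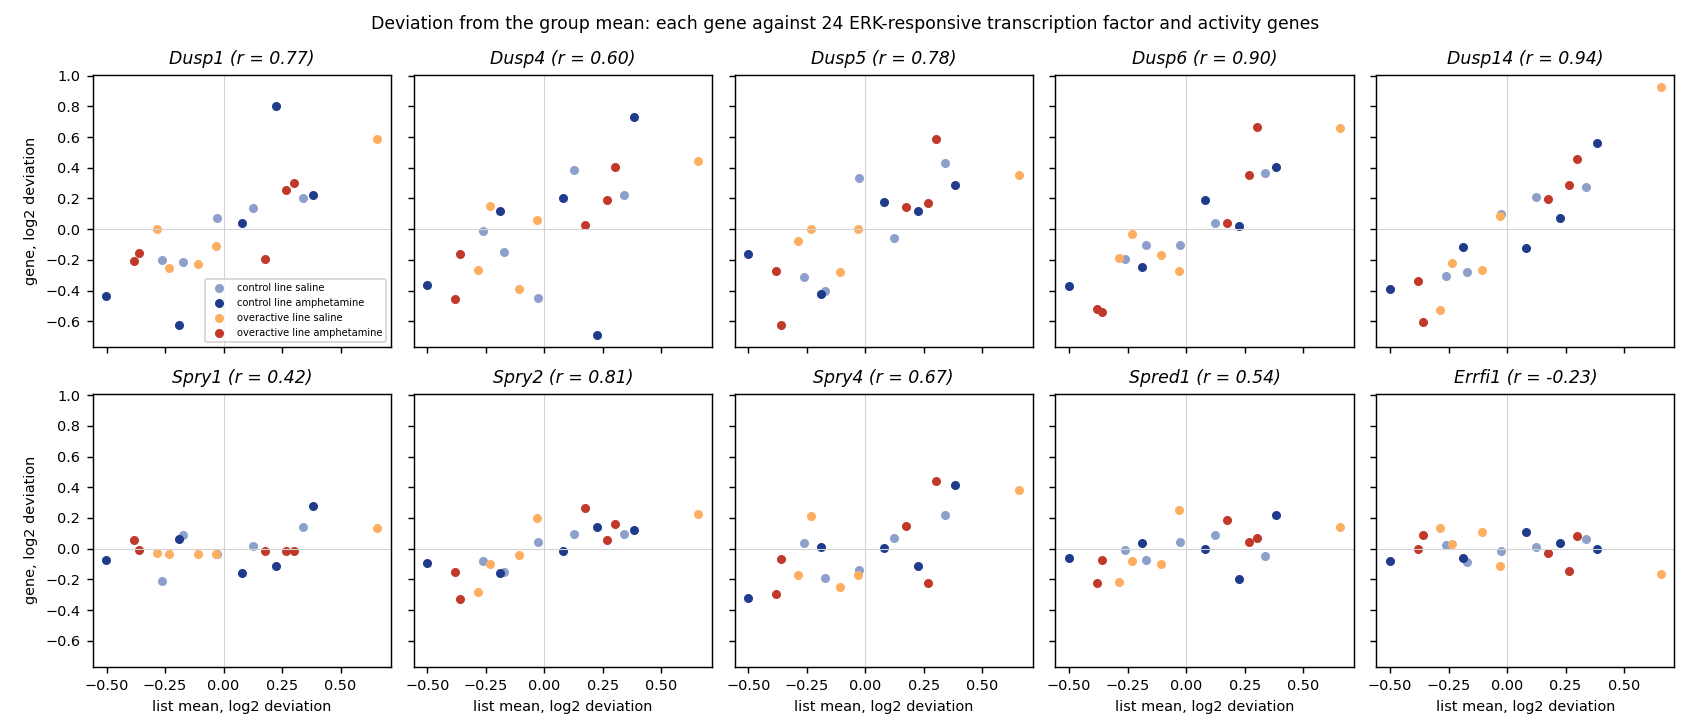
Deviation of each gene's log2 CPM from its group mean (vertical axes) against the mean deviation of 24 ERK-responsive transcription factor and activity genes (horizontal axes), 1 point per library, coloured by group. Points of Dusp14 and Dusp6 lie close to a rising line in every group and those of Errfi1 do not.

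The libraries farthest from the median of the list mean were control amphetamine library 1 and overactive saline library 3. Without them, 5 genes still passed: Dusp14 (r = 0.91), Dusp6 (r = 0.87), Dusp5 (r = 0.83), Spry2 (r = 0.83) and Dusp1 (r = 0.65). Dusp4 (r = 0.48) and Spry4 (r = 0.49) no longer did, so by r their relations passed only with those libraries included. All these values share the library's RNA, dissection and scaling, and the part of these in the relation was not tested.

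The 10 inhibitors were also set against each other in the same way. Of their 45 pairs, 37 had a positive Pearson r, with a median of 0.49. A permutation test adjusted over the 45 pairs was passed by 20, all with positive r. Pairs of other genes were not counted, so these values are not shown to be particular to the inhibitors. The closest pairs were Dusp6 with Dusp14 (r = 0.86, rho = 0.85), Dusp14 with Spry2 (r = 0.85, rho = 0.82) and Dusp5 with Dusp6 (r = 0.83, rho = 0.85). Their permutation p-values were 3e-05 to 4e-05 for r (adjusted 0.0006) and 3e-05 to 0.00022 for rho (adjusted 0.00135 to 0.00247). Dusp4 paired best with Spry4 (r = 0.79, rho = 0.76, permutation p = 0.00024 and 0.00072, adjusted 0.00216 and 0.0054). Without the 2 libraries farthest from the median of the first gene, r in these 4 pairs was 0.79, 0.89, 0.75 and 0.80. Of the 21 pairs among the 7 genes that followed the list, 16 passed. Dusp1 with Dusp4 (r = 0.17), Dusp1 with Spry4 (r = 0.38), Dusp4 with Spry2 (r = 0.40), Dusp4 with Dusp5 (r = 0.43) and Spry2 with Spry4 (r = 0.49) did not. Without the 2 libraries farthest from the median of the first gene, r in these 5 pairs was 0.61, 0.45, 0.56, 0.50 and 0.50. Dusp14 passed in 8 of its 9 pairs, Dusp6 in 6, Spred1 in 3 (with Dusp4, Spry2 and Dusp14), Spry1 in 1 and Errfi1 in 0, with r from -0.48 to 0.07 for Errfi1. The Spry1 pair, with Dusp14 (r = 0.50), did not pass by rho (0.43, permutation p = 0.0445, adjusted 0.0870). Its r was 0.12 without the 2 libraries farthest from the Dusp14 median. Of the 20 pairs that passed, 17 had r over 0.5 without the 2 libraries farthest from the median of the first gene.

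**Figure D4:**
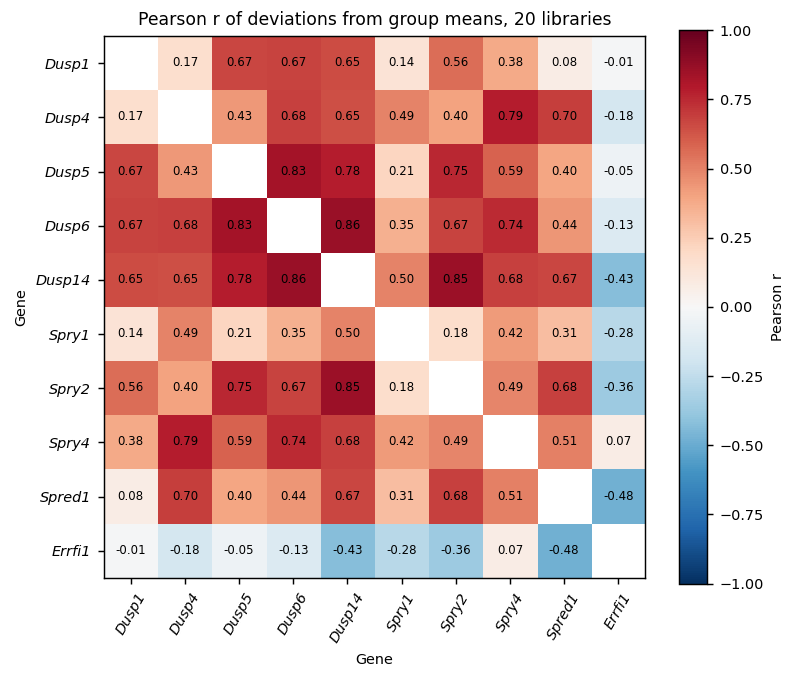
Pearson r of the deviations from group means for each pair of the 10 genes (both axes list the genes, n = 20 libraries), with the colour giving r. All 36 pairs without Errfi1 are positive, and the row of Errfi1 lies at or below 0.07. The value for Dusp1 with Dusp4 is 0.17, and 0.61 without the 2 libraries farthest from the Dusp1 median.

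The genes outside the 10 whose log2 CPM was most like each of them over the 20 libraries are given as a description, without a test. Egr1, a transcription factor gene induced by neuronal activity, was the most like Dusp14 (r = 0.94) and Dusp5 (r = 0.84). Btg2, an early response gene, was the most like Dusp1 (r = 0.88), with Fos next (r = 0.87). Nptx2, a secreted synaptic protein, was the most like Dusp6 (r = 0.90) and Stk40 the most like Spry4 (r = 0.84). The others were Zdhhc2 for Dusp4 (r = 0.89), Znfx1 for Spry2 (r = 0.93), Arhgap20 for Spred1 (r = 0.92), D8Ertd82e for Spry1 (r = 0.75) and Skap1 for Errfi1 (r = 0.80). For each of the 10, some outside genes had a higher r than its closest fellow inhibitor, from 8 genes for Dusp5 to 5186 for Errfi1.

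Genes of the same pathway were counted in 5 lists. No member of any passed edgeR's test for amphetamine in either line or over both, or its test of the interaction. Of 25 further phosphatases and feedback inhibitors 24 could be tested, and the 3 with the smallest p for amphetamine over both lines were Dusp26 (log2 -0.15, SE 0.07), Rasal1 (0.19, SE 0.10) and Sulf1 (0.16, SE 0.09). Of 38 genes of the Ras-ERK cascade they included Rasgrp1 (0.19, SE 0.07) and Shc3 (0.13, SE 0.06). Of 15 p38 and JNK kinase genes they were Mapk8, which encodes JNK1 (0.13, SE 0.04), Mapk10 (0.15, SE 0.05) and Map2k6 (0.15, SE 0.05). Of 15 growth factor genes tested they were Bdnf (0.77, SE 0.24), Fgf13 (0.16, SE 0.06) and Nrg3 (0.16, SE 0.07). The edgeR adjusted p-values of these 11 genes were 0.228 to 0.550. Of 10 cortical excitatory neuron markers 9 were also higher after amphetamine over both lines. Their part in the values of these 11 genes was not tested.

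The 24 ERK-responsive genes had a median log2 fold change for amphetamine of 0.19 in the control line, with 22 positive, and of -0.08 in the overactive line, with 9 positive. None of these passed edgeR's test. In its test of the interaction 0 of the 24 passed, with 0 of 24 also at an unadjusted p under 0.05. The log2 fold change of Fos was 0.66 (SE 0.42) in the control and -0.12 (SE 0.41) in the overactive line, that of Arc 0.53 (SE 0.46) and 0.06 (SE 0.45), and that of Egr1 0.15 (SE 0.26) and -0.14 (SE 0.26). Over both lines the smallest p-values in this list were those of Ier2 (0.57, SE 0.16), Nr4a2 (0.94, SE 0.30) and Elk4 (0.22, SE 0.09), with edgeR adjusted p from 0.212 to 0.347. The part of the cortical markers in the amphetamine values of this list was not tested.

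Between the lines, 4 pathway genes passed. In the lists that hold them this is 4.17% to 6.67% of those tested over both treatments, beside 7.02% of all genes. Of the 24 ERK-responsive genes 0 passed, and of the 15 growth factor genes 0. Ptpn7, a tyrosine phosphatase of ERK and p38, was lower in overactive mice, with 9.10 ± 0.588 CPM in control amphetamine and 4.91 ± 0.629 in overactive amphetamine libraries (log2 -0.89, SE 0.14, edgeR adjusted p = 0.00809), and it was the 1 of 24 further phosphatases and inhibitors to pass. After saline Ptpn7 was 6.66 ± 1.56 and 5.97 ± 0.824 CPM (SD, n = 5), and over both treatments the difference was -0.52 (SE 0.10, edgeR adjusted p = 0.00467). Over both treatments Fgfr3, a fibroblast growth factor receptor that is also on the astrocyte marker list (0.26, SE 0.06), and the row shared by Rps6ka2 and Gm1604b (0.26, SE 0.06) were the 2 of 38 cascade genes to pass, both higher in overactive mice. Mapk8 was lower (-0.16, SE 0.04, edgeR adjusted p = 0.0213), as 1 of 15 p38 and JNK kinase genes. With the cortical marker covariate none of the 4 passed over both treatments (Ptpn7 -0.37, Rps6ka2 0.22, Fgfr3 0.23 and Mapk8 -0.08, edgeR adjusted p from 0.12 to 0.334), while Ptpn7 under amphetamine did (-0.82). Without overactive saline library 3 and overactive amphetamine library 2, Mapk8 was -0.13 (edgeR adjusted p = 0.0681).

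Markers of the striatum and of cells around it were read in the same libraries. All 10 markers of striatal projection neurons were present, with a sum of 4045 to 6450 CPM per library. All 10 markers of cortical excitatory neurons were also present, and their sum was 448 to 1055 CPM in control saline, 803 to 1100 in control amphetamine, 259 to 469 in overactive saline and 353 to 1231 in overactive amphetamine libraries. Overactive saline library 3, high in 8 of the inhibitors, had the lowest cortical sum of all 20, overactive amphetamine library 2 the lowest of its group and overactive amphetamine library 4 the highest. Within groups, only Dusp5 followed the cortical markers (r = 0.65, rho = 0.55, permutation p = 0.0139 and 0.0342, adjusted 0.0348 and 0.0759). Without overactive amphetamine libraries 2 and 4 its r was 0.43 (adjusted permutation p = 0.297), so this relation passed only with those libraries included.

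Marker lists of several cell types had unequal values in the lines over both treatments. Overactive mice had higher values for 8 of 8 ependymal and choroid plexus markers (2 passed edgeR's test), 8 of 8 thalamic and septal neuron markers (0 passed in edgeR's test, 5 at an unadjusted p under 0.05) and 6 of 6 oligodendrocyte precursor markers (0 passed in edgeR's test, 4 at an unadjusted p under 0.05). Of 7 astrocyte markers tested, 3 passed as higher, Fgfr3 among them, and 1 as lower, and 1 of 7 oligodendrocyte markers passed as higher. Of 8 microglia markers 2 passed as lower. Of 10 cortical markers 9 were lower, all 9 at an unadjusted p under 0.05 and 1 past edgeR's test (median log2 -0.71). After saline all 10 cortical markers were lower (median log2 -1.14). Of 10 striatal projection neuron markers 9 were lower, with 2 at an unadjusted p under 0.05 and 0 past the test. Beside these counts over both treatments, 7.02% of all genes passed and 25.6% had an unadjusted p under 0.05. The summed ependymal and choroid plexus level ran from 41.3 to 963 CPM over the 20 libraries. Cortical markers were also unequal between the treatments. Over both lines 9 of 10 were higher after amphetamine (median log2 0.91), 8 at an unadjusted p under 0.05, beside 11% of all genes. In the overactive line 10 of 10 were higher (median log2 1.36), 8 at an unadjusted p under 0.05, beside 8.03%. In the control line 9 of 10 were higher (median log2 0.45), 0 at that p. None passed edgeR's test for amphetamine. Beyond the cortical covariate, the part of these markers in the values of the 10 inhibitors and the 4 pathway genes between the lines was not tested.

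With the cortical marker mean as a covariate, none of the 10 genes passed in any comparison, but several values moved. For amphetamine in the overactive line Dusp5 became -0.56 (SE 0.23, edgeR adjusted p = 0.9999), Dusp14 -0.53 and Dusp6 -0.30. Over both lines Dusp5 became -0.35 and Dusp6 -0.07. For the line difference in saline Dusp6 became 0.37 and Dusp5 0.27, the latter from -0.19. The astrocyte marker Slc1a2 and the oligodendrocyte marker Mbp are listed at 0 in all 20 libraries, so a 0 in this table can be a failed estimate. None of the 10 inhibitors was at 0 in any library.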

How the data were processed

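Striatal RNA of 20 male mice was sequenced with paired ends, 1 library per mouse. The authors deposited 1 table of expected counts per locus, not scaled between libraries, in which 93.9% of values were whole within 0.01. The submitters' processing notes name mm10 and GRCm38 as builds. Which aligner and counting tool were used, and whether strand was used, is not given in the sources used here. The 10576 loci without a symbol held 0.65% of the counts and were left out.

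The 10 genes were the rows whose symbol field holds each symbol. Spry2 is on 2 rows, and the row with the higher mean was used. Expected counts were rounded and analysed in R 4.3.3 with edgeR 4.0.16 (filterByExpr, TMM, 1 quasi-likelihood model with 1 mean per group on all 20 libraries). The 7 comparisons were two-sided, and p-values were adjusted by Benjamini-Hochberg over 17206 genes. Levels are TMM-scaled CPM, log2 CPM used a prior count of 2, and lengths are summed exons of GENCODE M21. For amphetamine in the control line the SE of log2 fold changes had a median of 0.11 over all genes. Over the 10 inhibitors it was 0.18, and the highest was 0.25. In data simulated for amphetamine in the overactive line on 17206 genes, the test recovered 20% of genes changed 1.25-fold and 56% of those changed 1.5-fold. It recovered 78% at 2-fold and 92% at 4-fold, and 7 of its 130 calls were false. The changed genes were drawn from all genes, so these rates were not measured for the 10 inhibitors, whose median SE is larger.

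All 10 genes are named. Of each pathway list, the genes that passed (at most 6) are named, and the 3 with the smallest p for amphetamine over both lines and for the line difference. Fos, Egr1 and Arc are named always, and for each of the 10 the most similar gene. A gene that this rule also names is not reported here. The members and lists were chosen with earlier results of these data known. The alternatives were 2 other scalings (upper quartile, RLE), 2 other filters (none, or at least 1 CPM in 5 libraries), the tools limma-voom (limma 3.58.1) and DESeq2 1.42.0, separate fits of the groups compared, a replicate block, the cortical marker mean as a covariate and leaving out each library. The summed Spry2 rows, the fit without overactive saline library 3 and overactive amphetamine library 2, and the pairs among the 10 genes were added after seeing the data. Correlations used Python 3.11.15, numpy 2.4.6 and scipy 1.17.1. No pair of libraries was identical (r of log2 CPM 0.966 to 0.990).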

Additional observations from a re-analysis of the deposited data

Results flagged for a closer look

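In 4 of the 40 sets of 5 libraries (10 genes in 4 groups), 1 library lay so far from the rest that its gap to the nearest, as a share of the range, exceeded Dixon's 95% critical value of 0.710. Chance flags about 1 in 20 such sets. Dusp1 was 27.4 CPM in overactive saline library 3, where the others were 15.3 to 18.3. Dusp6 was 63.3 CPM in the same library, where the others were 33.1 to 39.1. Spry1 was 9.51 CPM in that library, where the others were 8.45 to 8.50, a gap small in absolute terms because the others lay so close together. Spry1 was 9.16 CPM in overactive amphetamine library 3, where the others were 8.73 to 8.75. The 3 flags of overactive saline library 3 come from 1 mouse and are not independent of each other.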

How the results depend on the processing

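The count of inhibitor genes past the test was 0 in each of the 7 comparisons under every alternative run, and the lowest adjusted p was 0.0611 (Errfi1 between the lines, with 1 library left out). Of 1400 fold changes with 1 library left out, 4 moved by more than their spread, and of 740 under the other 11 settings 23 did, 13 with the cortical marker covariate and 10 without overactive saline library 3 and overactive amphetamine library 2. Of the 20 relations to marker and activity lists 8 passed, and 5 without the 2 libraries farthest from the median of the list mean. The labels do not say whether replicate numbers pair the mice, and the values do not decide it. Same-numbered libraries had a median correlation of deviations of 0.04 over 30 pairs, 10 of them over 0.1. The median was -0.008 over 120 other pairs, 19 of them over 0.1. Of 20 libraries 6 were closest to their own number. With the replicate number as a block 0 of the 10 genes passed, and 51 of all genes were called between the lines under amphetamine, against 78 without it.

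Counts over all genes depended more on the setting. DESeq2 called 40 and 181 genes for amphetamine in the overactive line and over both lines, where edgeR called 0, and 764, 322 and 2095 between the lines (after saline, after amphetamine, and with treatments joined), where edgeR called 191, 78 and 1208. The cortical covariate left 21 and 203 in saline and over both treatments, a fit of only the groups compared 50 under amphetamine, and leaving out both libraries 83, 20 and 606. With 1 library left out the counts between the lines were 67 to 240, 23 to 88 and 770 to 1414, and 0 to 4 for amphetamine over both lines. The cause of these changes was not tested. Within a line, the intervals of Dusp1 and Dusp6, and in the overactive line Dusp14, reach beyond 1.5-fold.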

Other observations

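Between the lines, over both treatments, the pathway genes with the smallest p that did not pass were Lztr1 (log2 -0.15, SE 0.05) and Rasa1 (-0.10, SE 0.03), both negative regulators of Ras, Map2k6 (-0.15, SE 0.05) and Mapk10 (-0.12, SE 0.05), with edgeR adjusted p from 0.0735 to 0.0969. Among growth factor genes they were Nrg3 (-0.18, SE 0.07), Fgf2 (-0.49, SE 0.21) and Btc (0.39, SE 0.18), with edgeR adjusted p from 0.114 to 0.167. Fgf2 and Btc were low, with group means of 0.42 to 0.62 and 0.90 to 1.23 CPM. Among ERK-responsive genes they were Nr4a2 (-0.64, SE 0.30), the row with Elk1 (-0.08, SE 0.05) and Maff (0.17, SE 0.13), with edgeR adjusted p from 0.190 to 0.432.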
